A study of Mus musculus with 8 samples.

Results

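Smooth muscle cells of the aorta hold their contractile filaments to the surrounding matrix at dense plaques, membrane sites where integrins grip the matrix outside and actin filaments are anchored inside, and at dense bodies in the cytoplasm, which play the part of the Z-discs of striated muscle. The proteins described here belong to that system. Integrin α8 is a matrix receptor, filamin A crosslinks actin and ties it to integrins, and a group of LIM and PDZ-LIM proteins (named after small protein-binding domains) docks on α-actinin and actin. Synaptopodin-2 bundles actin, and phosphoglucomutase-like protein 5 is an adhesion plaque protein. The 7 genes, Itga8, Flna, Csrp1, Pdlim3, Ldb3, Synpo2 and Pgm5, were chosen by name, and each of the 7 matched 1 Ensembl identifier among the 1329 genes of the deposited table.

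RNA with poly-A tails was sequenced from the ascending aorta of Fbn1mgR/mgR mice, a Marfan syndrome model in which fibrillin-1 is under-expressed. The DT-061 group (4 libraries) took this activator of protein phosphatase 2A by mouth, 5 mg/kg per dose and 2 doses daily, beginning at an age of 5 weeks and lasting 4 weeks. The vehicle group (4 libraries) had the same genotype and took the solution without the compound, made of N,N-dimethylacetamide, Kolliphor HS-15 and water. Its schedule was the same, 2 doses daily from an age of 5 weeks and for 4 weeks. Both groups therefore carry the mutant alleles and neither is wild type. The labels used here state no sex. No label says whether a library came from 1 mouse or several, so p-values measure the spread between libraries, which may in part be technical. Values are FPKM, fragments scaled to gene length and library size by the authors. The recovered depths were 14100000 to 22200000 fragments per library. The labelled tissue was matched by abundant smooth muscle transcripts, since Acta2, smooth muscle α-actin, stood at 6165 to 9006 FPKM with DT-061 and 3458 to 6118 FPKM with vehicle.

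The deposited table is named as holding genes significant between the groups, so membership in it already rests on this contrast and the p-values below are not independent evidence. Of its 1329 genes, 95.4% passed limma at an adjusted p under 0.05 and 30.4% did so in the higher direction. The DT-061 and vehicle values were fully separate in 78.3% of them, and in 30.1% with DT-061 higher.

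All 7 anchoring genes rose with DT-061, and in all 7 the lowest DT-061 library was above the highest vehicle library. The rises were modest, from 1.24-fold for Ldb3 to 1.68-fold for Pdlim3, and 6 of the 7 lay between 1.55-fold and 1.68-fold. The median change in log2(FPKM + 1) was 0.65 over the 7 genes and -0.58 over the whole table. With 0.1 added in place of 1, these medians were 0.66 and -0.99, so the table median depends on the added value. Since 95.4% of the table passes the same test, 7 of 7 passing is near the background. The groups were also fully separate for 400 of the 435 genes higher with DT-061, so 7 of 7 separate is near that share. In bulk tissue, fewer cells of a type and less RNA per cell cannot be told apart, and the same holds for more cells and more RNA per cell.

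Upstream windows from RefSeq, on GRCm38.p6, are shown for the members in which a motif of smooth muscle or striated muscle genes was found, because all 7 genes rose with DT-061. The windows run from 250 bases before to 50 bases after an annotated transcription start, and all 7 genes had at least 1. The motifs searched on both strands were the CArG box, which serum response factor binds, and the MCAT element CATTCC, which TEAD factors bind. No CArG match overlaps an MCAT match in the stretches shown. On the opposite strand MCAT reads GGAATG. Capitals mark the matched bases, each stretch is written on the gene's own strand, and stretches stop short of any annotated exon.
Ldb3, CArG box, chr14:34588683-34588746, minus strand: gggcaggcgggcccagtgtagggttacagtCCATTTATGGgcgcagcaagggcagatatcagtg
Pdlim3, CArG box with 1 base different, chr8:45885357-45885426, plus strand: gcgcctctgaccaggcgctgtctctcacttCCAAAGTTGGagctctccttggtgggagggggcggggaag
Pdlim3, MCAT, chr8:45885256-45885321, plus strand: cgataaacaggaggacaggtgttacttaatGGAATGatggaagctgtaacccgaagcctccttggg
Flna, CArG box with 1 base different, chrX:74246556-74246608, minus strand: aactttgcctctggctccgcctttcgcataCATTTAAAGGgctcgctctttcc
Flna, MCAT, chrX:74246645-74246710, minus strand: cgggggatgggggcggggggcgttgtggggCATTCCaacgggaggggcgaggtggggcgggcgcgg

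A full CArG match was present in the windows of 1 of the 7 genes, Ldb3, against 1.81% of the 27025 genes with a window. With 1 base allowed to differ, 3 of the 7 genes had a match, against 23.8% of all genes. MCAT was present in 2 of the 7, against 16.6%. Ldb3, which holds the full match, was the member that changed least, as its values show further on. No match was found for Csrp1, Itga8, Pgm5 or Synpo2, which says only that these letters are not in these windows. The Ldb3 match lies at -35 to -26 from 1 annotated start and at -109 to -100 from another, the Pdlim3 CArG match at -100 to -91, and the Flna CArG match at -44 to -35 from a RefSeq start inside the GENCODE span of the gene. Pdlim3 has a second MCAT match at -11 to -6, in an annotated exon and not shown. A match describes the sequence only.

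Itga8 encodes integrin α8, which pairs with integrin β1 and binds matrix proteins such as fibronectin and nephronectin. It lies on GRCm38 chromosome 2, 12106632 to 12301922, minus strand (ENSMUSG00000026768). Its level was 376, 354, 336 and 345 FPKM in DT-061 libraries 1 to 4, and 179, 246, 218 and 264 FPKM in vehicle libraries 1 to 4. The DT-061 libraries lay close together and all exceeded the vehicle libraries, of which library 1 was the lowest. The means were 353 ± 17.2 FPKM with DT-061 and 227 ± 37.1 FPKM with vehicle (SD, n = 4), and limma put the log2 change at 0.65 ± 0.13 (SE; adjusted p = 0.015). An antisense gene, E030013I19Rik, shares 372 exonic bases with Itga8, and without a stated strand setting reads there cannot be assigned to either.

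Flna encodes filamin A, the large actin crosslinker that binds integrin β tails. It has 45 merged exons and 9400 exonic bases on chromosome X, 74223461 to 74249820, minus strand (ENSMUSG00000031328). Flna stood at 1128, 1156, 1694 and 1076 FPKM in the DT-061 libraries, and at 620, 862, 710 and 829 FPKM in the vehicle libraries. DT-061 library 3 was far above the other 3 of its group, whose values lay between 1076 and 1156 FPKM and still exceeded all vehicle values. The means were 1263 ± 289 FPKM with DT-061 and 755 ± 111 FPKM with vehicle (SD, n = 4), and limma put the log2 change at 0.73 ± 0.18 (SE; adjusted p = 0.017). With quantile normalization the change was 0.60 and its adjusted p 0.054 by limma.

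**Figure D1:**
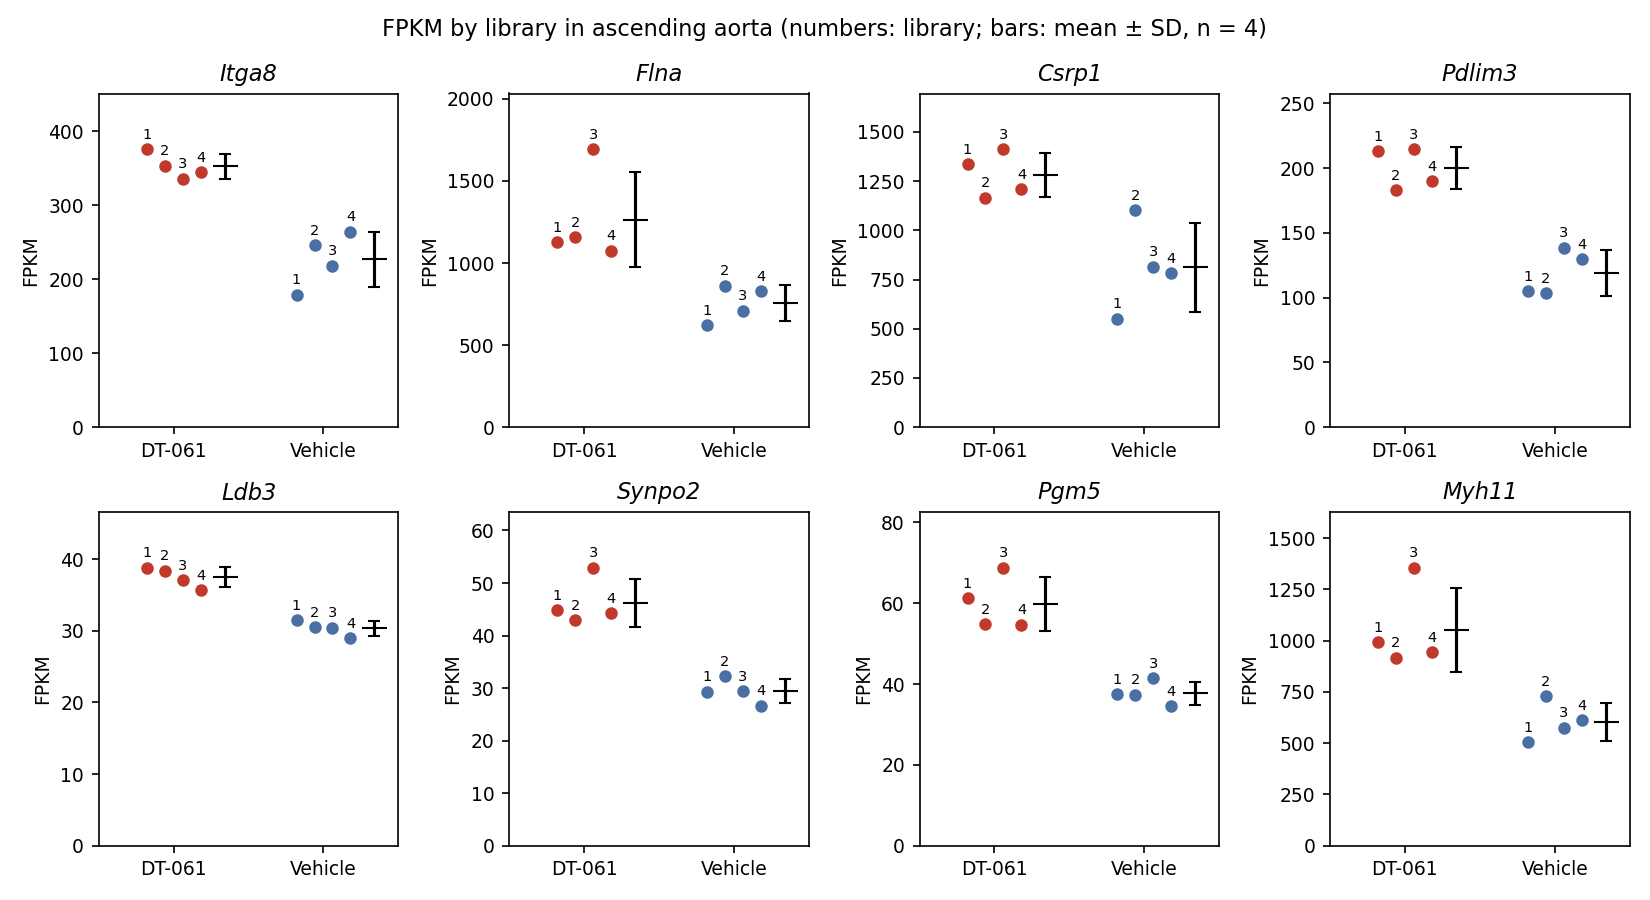
FPKM of the 7 anchoring genes and of Myh11 in each library, with DT-061 libraries in red on the left and vehicle libraries in blue on the right, numbered by library. Black bars give the mean ± SD (n = 4), and in every panel the lowest red point is above the highest blue point, by as little as 1.06-fold for Csrp1 and as much as 1.33-fold for Synpo2.

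The LIM genes come next, beginning with Csrp1, cysteine and glycine-rich protein 1, a LIM-only protein that binds α-actinin and zyxin. Csrp1 lies on chromosome 1, 135720061 to 135752232, plus strand (ENSMUSG00000026421). It had 1336, 1167, 1413 and 1209 FPKM in the DT-061 libraries, and 552, 1102, 815 and 781 FPKM in the vehicle libraries. Vehicle library 2 came within 1.06-fold of the lowest DT-061 library, and vehicle library 1 was far under all others. The means were 1282 ± 113 FPKM with DT-061 and 812 ± 225 FPKM with vehicle (SD, n = 4), and limma put the log2 change at 0.70 ± 0.20 (SE; adjusted p = 0.019), the highest adjusted p of the 7. With quantile normalization the change was 0.60 and its adjusted p 0.062 by limma.

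Pdlim3, actinin-associated LIM protein, joins a PDZ domain that binds α-actinin to a LIM domain. It lies on chromosome 8, 45885461 to 45919548, plus strand (ENSMUSG00000031636). Pdlim3 had 213, 183, 215 and 190 FPKM in the DT-061 libraries, and 105, 103, 139 and 130 FPKM in the vehicle libraries. The groups were well apart, with the lowest DT-061 library 1.32-fold above the highest vehicle library. The means were 200.2 ± 16.1 FPKM with DT-061 and 119 ± 17.7 FPKM with vehicle (SD, n = 4), and the log2 change of 0.75 ± 0.12 (SE; limma adjusted p = 0.013) was the largest of the 7.

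Ldb3, also called ZASP or cypher, is a related PDZ-LIM protein best known from the Z-disc of striated muscle. It lies on chromosome 14, 34526603 to 34588682, minus strand (ENSMUSG00000021798). Ldb3 had 38.8, 38.4, 37.1 and 35.7 FPKM in the DT-061 libraries, and 31.5, 30.5, 30.4 and 29.0 FPKM in the vehicle libraries. Both groups were narrow, with an SD of 3.75% of the mean with DT-061 and 3.41% with vehicle, and they did not overlap. The means were 37.5 ± 1.41 FPKM with DT-061 and 30.3 ± 1.04 FPKM with vehicle (SD, n = 4), so Ldb3 rose by 0.30 ± 0.07 on the log2 scale (SE; limma adjusted p = 0.016), less than any other member. None of the 14 cardiac and 10 skeletal muscle markers listed was among the genes analysed here.

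Synpo2, synaptopodin-2 or myopodin, bundles actin and binds α-actinin and filamin at dense bodies. It lies on chromosome 3, 123076519 to 123236149, minus strand (ENSMUSG00000050315). Synpo2 had 44.8, 43.0, 52.9 and 44.2 FPKM in the DT-061 libraries, and 29.3, 32.3, 29.4 and 26.6 FPKM in the vehicle libraries. The lowest DT-061 value was 1.33-fold above the highest vehicle value, the widest gap among the 7. The means were 46.2 ± 4.53 FPKM with DT-061 and 29.4 ± 2.32 FPKM with vehicle (SD, n = 4), and limma put the log2 change at 0.63 ± 0.10 (SE; adjusted p = 0.013).

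Pgm5, also called aciculin, is related to phosphoglucomutase in sequence but is known as a partner of dystrophin and filamin at adhesion plaques and not as a metabolic enzyme. It lies on chromosome 19, 24683016 to 24861855, minus strand (ENSMUSG00000041731). Pgm5 had 61.3, 54.8, 68.8 and 54.7 FPKM in the DT-061 libraries, and 37.5, 37.3, 41.5 and 34.5 FPKM in the vehicle libraries. No vehicle library reached the DT-061 range. The means were 59.9 ± 6.70 FPKM with DT-061 and 37.7 ± 2.90 FPKM with vehicle (SD, n = 4), and limma put the log2 change at 0.65 ± 0.10 (SE; adjusted p = 0.013). None of the 4 other phosphoglucomutase genes listed was in the table.

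By mean FPKM, which is per length, the order in both groups began with Csrp1 and Flna, followed by Itga8, Pdlim3 and Pgm5. Synpo2 came before Ldb3 with DT-061 and after it with vehicle, where these 2 genes overlapped. Csrp1 and Flna could not be separated in either group, since the ratio of Csrp1 to Flna was 0.835 to 1.18 across DT-061 libraries and 0.890 to 1.28 across vehicle libraries. Synpo2 was 1.12 to 1.43 times the FPKM of Ldb3 in the DT-061 libraries and 0.920 to 1.06 times in the vehicle libraries, a pair chosen after its values were seen and not tested. Among all 1329 genes by mean FPKM, Csrp1 had rank 8 and Flna rank 9, while Ldb3, the lowest member, had rank 191. The estimated fragments per library ran from 1750 for Pgm5 to 231000 for Flna, and the largest counting error of any member was 2.39%. For Ldb3 the counting error of up to 2% stands beside an SD of 3.75% of the mean with DT-061 and 3.41% with vehicle.

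Because Myh11, the smooth muscle myosin heavy chain, also rose (1052 ± 205 FPKM with DT-061 and 605 ± 93.6 FPKM with vehicle; SD, n = 4), the members were set against it within each library. This asks whether an anchoring gene changed by a different amount from the main contractile motor gene. Relative to Myh11, 77.3% of the 1328 other genes were called lower and 0.0753% higher by limma. In all, 77.4% were called in either direction. That share includes genes that fell, since 894 of the 1329 genes were lower with DT-061 while Myh11 rose. It is therefore not a like background for 7 genes that all rose. Genes higher with DT-061 had a median relative change of -0.32. Among the 7 anchoring genes 1 was called, and the other 6 missed the threshold.

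Ldb3 was the 1 that differed. It stood at 3.91, 4.19, 2.73 and 3.78% of the Myh11 level in the DT-061 libraries, and at 6.24, 4.20, 5.29 and 4.74% in the vehicle libraries. The groups only just did not overlap, at DT-061 library 2 and vehicle library 2. The relative change was -0.50 ± 0.18 on the log2 scale (SE; 95% interval -0.90 to -0.09; limma adjusted p = 0.029). The call ended without DT-061 library 3 (-0.36, limma adjusted p = 0.058), without vehicle library 1 (-0.40, 0.073) and without vehicle library 3 (-0.48, 0.068), and the direction was lower in each of these. With the mean of the thin filament genes in place of Myh11 it ended too, at -0.23 with an adjusted p of 0.24, and without Tpm3 in that mean it was -0.41 with an adjusted p of 0.083.

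For the other 6 genes the relative changes were small and negative, from -0.04 for Pdlim3 to -0.16 for Synpo2, and all 6 turned positive when the mean of the thin filament genes was used in place of Myh11. Without Tpm3, the thin filament gene that fell, 4 of the 6 were negative against that mean (Csrp1 -0.012, Itga8 -0.060, Pgm5 -0.056 and Synpo2 -0.074), a setting chosen after seeing the data. The narrowest interval was that of Flna, with a relative change of -0.06 and a 95% interval of -0.26 to 0.13. Flna stood at 114 to 126% of the Myh11 level in DT-061 libraries and 118 to 136% in vehicle libraries. The intervals of Itga8 (-0.51 to 0.22) and Pdlim3 (-0.44 to 0.36) leave room for sizeable differences in either direction. A p above the threshold does not show that these genes change exactly as Myh11 does.

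**Figure D2:**
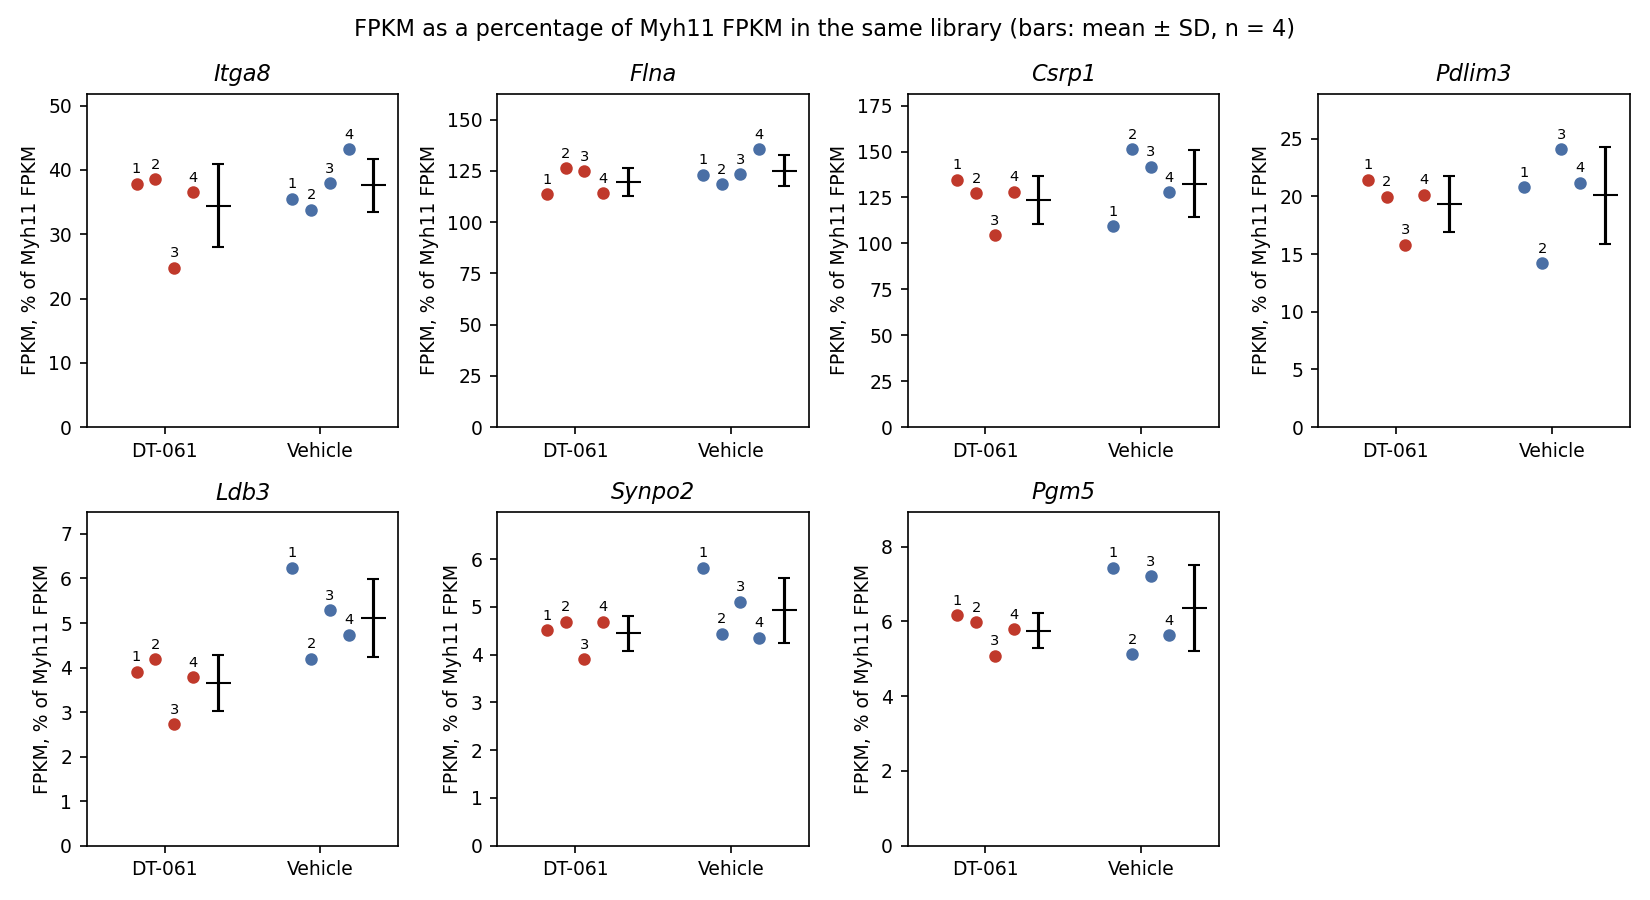
FPKM of each of the 7 genes as a percentage of the Myh11 FPKM of the same library (vertical axes from 0), with DT-061 libraries in red on the left and vehicle libraries in blue on the right, and the mean ± SD (n = 4) in black. The groups overlap in every panel except that of Ldb3, which averaged 3.65% with DT-061 and 5.12% with vehicle.

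Within a group, the 7 genes did not form 1 block. Deviations of log2(FPKM + 1) from the group mean over the 8 libraries gave a median Pearson r of 0.26 over the 21 pairs of members, with a range from -0.42 for Itga8 with Ldb3 to 0.75 for Pgm5 with Synpo2. Flna (r = 0.95), Csrp1 (0.79) and Synpo2 (0.78) followed Myh11 most closely, whereas Pdlim3 (0.19) and Ldb3 (-0.25) did not. These correlations are descriptions over 8 libraries that share library-wide scaling. DT-061 library 3 shows the split. In it Flna stood 0.45 and Myh11 0.38 above the group mean of log2(FPKM + 1), while the deviation of Itga8 was -0.07 and its value the lowest of the DT-061 group. In vehicle library 1 the deviations from the vehicle mean were -0.52 for Csrp1, -0.33 for Itga8 and -0.27 for Flna, while Pgm5 and Synpo2 deviated by less than 0.01.

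**Figure D3:**
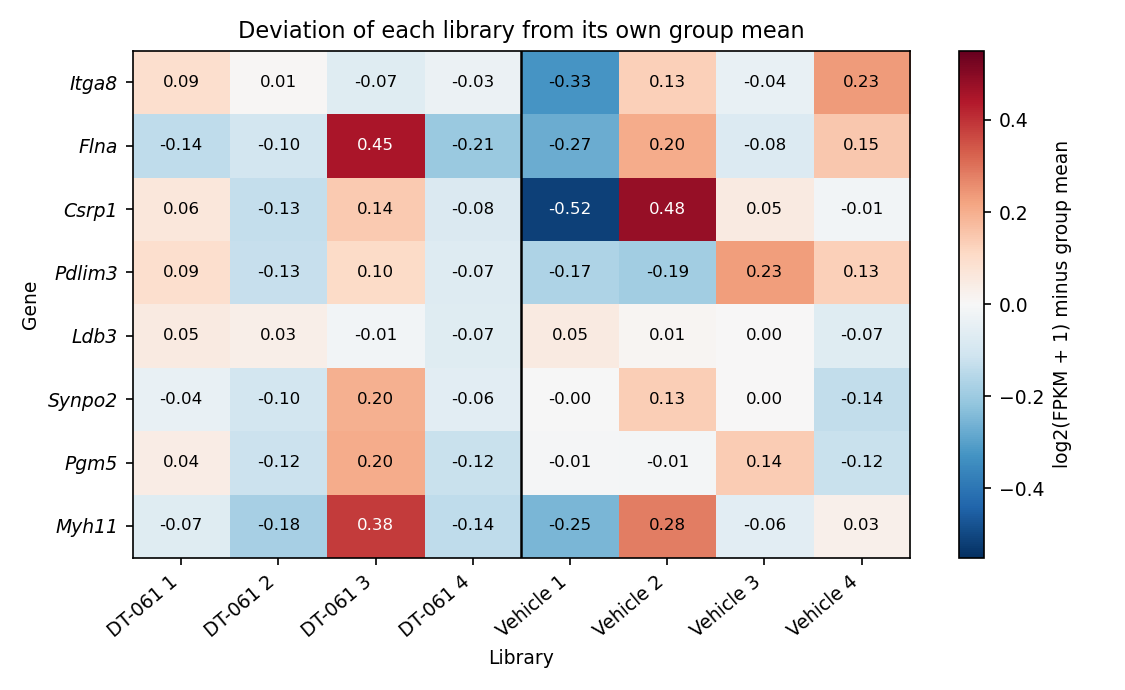
Deviation of log2(FPKM + 1) of each library from the mean of its own group, for the 7 genes and Myh11 (rows) in DT-061 libraries and then vehicle libraries (columns), with red above and blue below the group mean. Ldb3 stays within 0.07 of its group mean in every library, whereas Csrp1 in the vehicle group ranges from -0.52 to 0.48.

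The genes most like the members were picked among 470 other genes with a mean of at least 10 FPKM, by the Pearson r of their within-group deviations with the mean deviation of the 7 members over the 8 libraries. They were Sun2 (r = 0.97), Map1b (0.96), Paqr6 (0.96), Tpm2 (0.95), Tagln (0.95) and Cnn1 (0.94). Tpm2, Tagln and Cnn1 encode tropomyosin 2, transgelin and calponin 1 of the smooth muscle thin filament, Sun2 encodes a nuclear envelope protein that links the nucleus to the cytoskeleton, and Map1b a microtubule-associated protein. Sun2 had 138 ± 16.7 FPKM with DT-061 and 97.5 ± 15.2 FPKM with vehicle (SD, n = 4), and its DT-061 library 3 and vehicle library 1 were the highest and the lowest of all 8, at 161 and 75.3 FPKM.

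Other genes of the anchoring system were taken from 6 lists of 104 genes. Of these, 14 were in the table, 12 rose and 2 fell, and their median log2 change was 0.53, beside -0.58 over the whole table. The table was selected on this contrast, so these counts and the median do not describe the 6 lists as a whole. The listed genes outside it were not analysed here. DT-061 and vehicle values were fully separate for 12 of the 14, against 78.3% of all 1329 genes. Of all 1329 genes, 95.4% passed limma in either direction and 30.4% as higher. All 6 listed LIM genes in the table, of 25, rose. Zyx, zyxin, a LIM protein of adhesion plaques to which Csrp1 binds, had 414, 376, 486 and 439 FPKM in DT-061 libraries and 230, 235, 271 and 290 FPKM in vehicle libraries, and limma put the log2 change at 0.74 ± 0.12 (SE; adjusted p = 0.013), close in size to Pdlim3. Csrp2, the closest relative of Csrp1 among them, averaged 1448 ± 106 FPKM with DT-061 and 926 ± 142 FPKM with vehicle (SD, n = 4), a level like that of Csrp1, and rose by 0.65 ± 0.13. The paxillin relative Tgfb1i1 (Hic-5), the integrin-linked kinase partner Lims2 and the PDZ-LIM gene Pdlim7 rose by 0.60, 0.56 and 0.55. Crip2 rose least, by 0.37, and its call ended without DT-061 library 3 (limma adjusted p = 0.053), vehicle library 1 (0.051) or vehicle library 3 (0.059). The Crip2 call also ended with the replicate number as a block (limma adjusted p = 0.076).

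Integrins were divided. Beside Itga8, the receptor genes Itgb3 and Itga9 rose and Itga6 and Itga2 fell. Itgb3, integrin β3, had 23.1 ± 3.36 FPKM with DT-061 and 16.0 ± 2.35 FPKM with vehicle (SD, n = 4), and limma put the log2 change at 0.50 ± 0.14 (SE; adjusted p = 0.018). Itga9, integrin α9, had 97.8, 105, 67.8 and 105 FPKM in DT-061 libraries and 55.0, 66.7, 63.2 and 74.9 FPKM in vehicle libraries. DT-061 library 3 lay among the vehicle values, and it was also the lowest DT-061 library for Itga8. The Itga9 call ended without DT-061 library 1 (limma adjusted p = 0.0503) or DT-061 library 4 (0.052), and with quantile normalization (0.062). Itga6, a laminin receptor subunit, averaged 2.71 ± 1.43 FPKM with DT-061 and 6.98 ± 1.98 FPKM with vehicle (SD, n = 4), with overlapping groups. Its log2 change was -1.17 ± 0.35 (SE; limma adjusted p = 0.020). That call ended with the median rescaling (-0.53, adjusted p = 0.12) and with quantile normalization (-0.43, 0.16). It also ended with the replicate number as a block (limma adjusted p = 0.0505). Itga2, a collagen receptor subunit, was at 0.0327 to 0.212 FPKM with DT-061 and 0.319 to 0.530 FPKM with vehicle, and its fall turned to a log2 change of 0.17 with quantile normalization (limma adjusted p = 0.13). None of the listed ligands of these receptors, among them Npnt and Fn1, was in the table.

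All 3 genes in the table from the list of 20 actin crosslinking, anchoring and other cytoskeletal genes rose. Vim, the intermediate filament gene vimentin, had 2890 ± 165 FPKM with DT-061 and 2026 ± 200.5 FPKM with vehicle (SD, n = 4). Its log2 change of 0.52 ± 0.11 (SE) lost its call with quantile normalization (0.22, limma adjusted p = 0.39). Nexn, the actin-binding protein nexilin, rose by 0.43 ± 0.10. Myom1, myomesin 1, had 203 FPKM in DT-061 library 3 with the other DT-061 libraries at 107 to 122 FPKM, and 75.3 to 97.0 FPKM in the vehicle libraries. Its call ended without vehicle library 3 (limma adjusted p = 0.058) and with the replicate number as a block (0.057). None of the 19 focal adhesion adaptor genes listed, among them Tln1, Vcl, Ilk and Pxn, was in the table, so their changes were not analysed here.

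**Figure D4:**
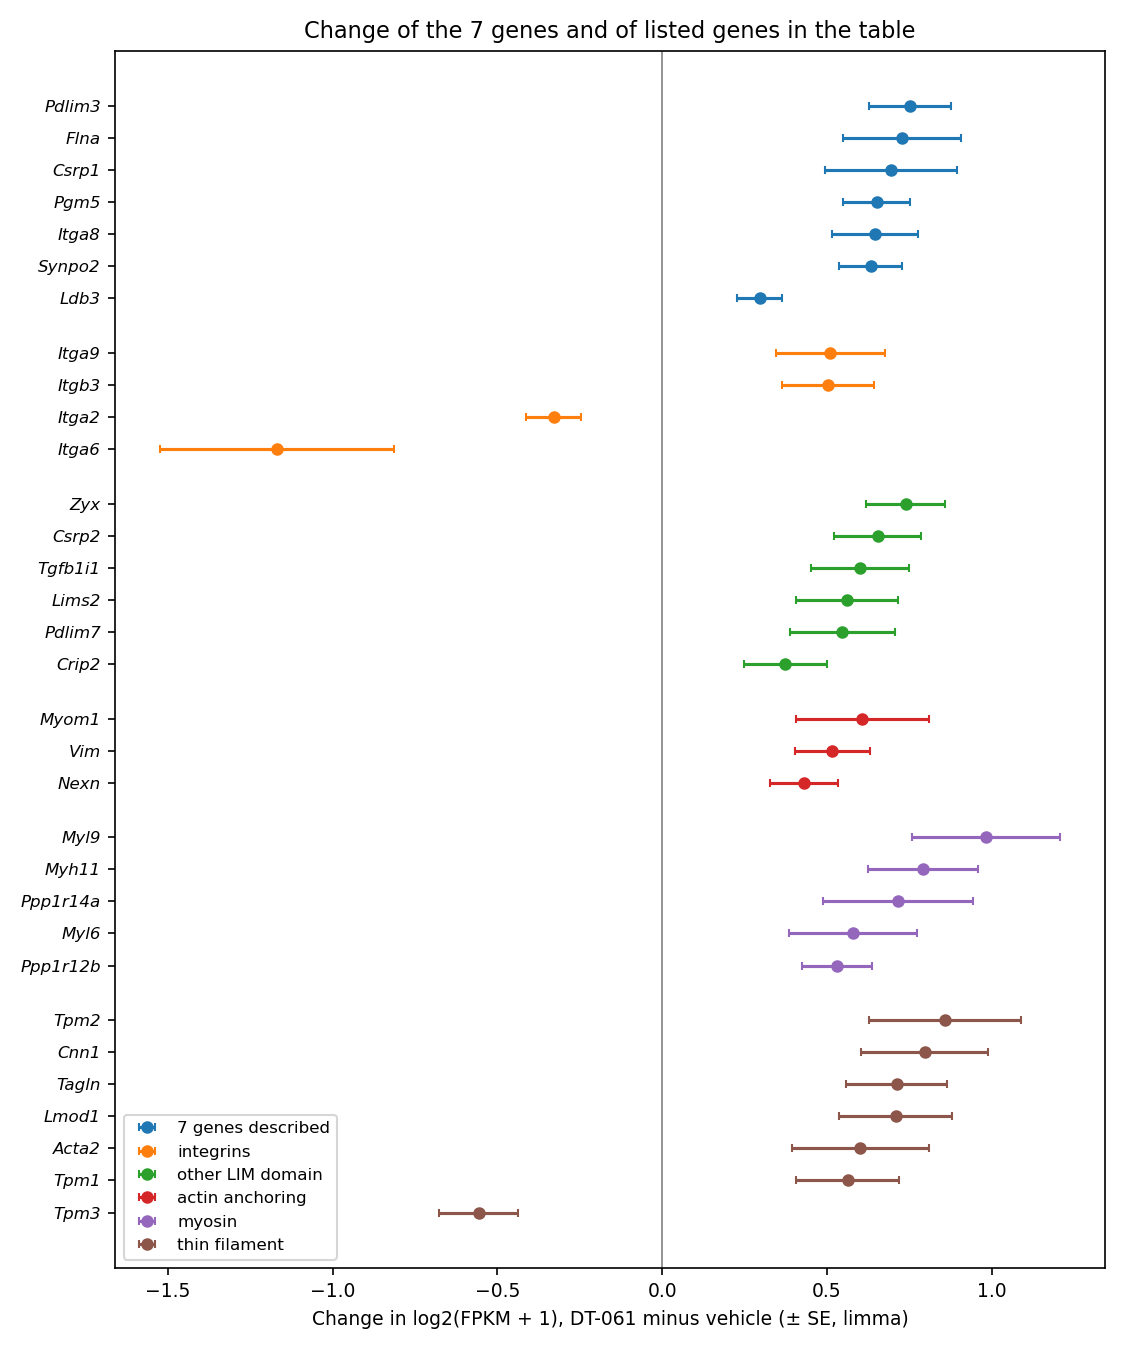
Change in log2(FPKM + 1), DT-061 minus vehicle, with its SE from limma (horizontal axis), for the 7 genes (top, blue) and the genes of the integrin, LIM, actin anchoring, myosin and thin filament lists found in the table (other colours). The 7 genes lie between 0.30 and 0.75, and Itga2, Itga6 and Tpm3 are the genes drawn to the left of 0. With quantile normalization Itga2 turns to higher and Acta2 and Myl6 no longer rise, and with the median rescaling Tpm3 turns to higher.

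The contractile filament genes, whose products pull on these anchors, were counted the same way. The counts and medians again cover only genes in a table selected on this contrast. In the table were 5 of 15 myosin and light chain regulation genes, all of which rose, with a median log2 change of 0.72. Of 18 thin filament genes 7 were in the table, 6 rose and Tpm3, a tropomyosin found in many cell types, fell by 0.56 on the log2 scale, and the median was 0.71. These medians stand beside 0.65 for the 7 anchoring genes, and the difference between the lists was not tested. Of 13 listed regulators of the serum response factor and myocardin system, only Hopx was in the table, and it fell by 0.81. Scaling turned some of these genes. The log2 change was 0.29 for Tpm3 after the median rescaling and 0.10 for Hopx after quantile normalization. With quantile normalization Acta2 and Myl6 no longer rose. They ranked 1 and 3 by mean FPKM, where this scaling sets a value by the order of a few top genes.

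Scaling sets the size of these changes. When all libraries were brought to a common table median, the median of all genes moved by 0.45 and the 7 genes changed by 1.12 to 1.60. With quantile normalization the median moved by 0.63 and the 7 genes changed by 0.33 to 0.89. Both scalings were computed from the 1329 genes alone, which were selected on this contrast and of which 894 were lower with DT-061. A common median or distribution is therefore not a neutral reference, and these changes show only how far scaling moves the values. Relative to the median of all genes, the members stood 0.88 to 1.33 higher as deposited, 1.25 to 1.73 higher with the median rescaling and 0.28 to 0.84 higher with quantile normalization. The median rescaling multiplies a whole library by 1 factor, which cannot move 1 gene relative to another. Its larger values therefore come from the 1 added before the log2, which damps low genes. No member changed direction under either scaling. The calls over the table were 404 higher and 864 lower as deposited, 434 higher and 299 lower with the median rescaling, and 394 higher and 209 lower with quantile normalization.

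Immune cell markers moved the other way. Of 20 listed markers of macrophages, T and NK cells, B and plasma cells and neutrophils in the table, 19 fell, and the remaining 1 missed the threshold. The marker counts given here cover only genes in a table selected on this contrast, in which 864 of the 1329 genes fell and 404 rose. With the median rescaling 15 of the 20 fell and Sdc1 and Xbp1 turned to higher without passing, and with quantile normalization 5 of the 20 fell. The summed level of the T and NK cell markers was 2.86 to 8.79 FPKM with DT-061 and 7.14 to 81.8 FPKM with vehicle, from 10 of 12 listed genes. The B and plasma cell markers (5 of 10) summed to 69.8 to 117 FPKM with DT-061 and 176 to 2401 FPKM with vehicle. Those of macrophages (2 of 13) summed to 12.4 to 69.1 FPKM with DT-061 and 78.2 to 318 FPKM with vehicle. The groups did not overlap for these last 2 cell types, but they did for T and NK cells and for neutrophils. Neutrophil markers (3 of 8) summed to 0.569 to 2.46 FPKM with DT-061 and 1.46 to 24.8 FPKM with vehicle. Of these 20 genes, 1 T and NK cell marker and 1 neutrophil marker were at 0 in at least 1 library. All 3 fibroblast markers in the table, of 12, fell as well (1 of 3 with the median rescaling, where Lum turned to higher), with sums of 84.8 to 155 FPKM with DT-061 and 221 to 362 FPKM with vehicle. The adipocyte marker Cfd, 1 of 7, fell too (72.4 to 330 FPKM with DT-061 and 489 to 1391 FPKM with vehicle). The smooth muscle markers moved with the anchoring genes. All 5 in the table, of 8, rose, with sums of 12730 to 18070 FPKM with DT-061 and 7094 to 11390 FPKM with vehicle. With quantile normalization 3 of the 5 were called higher, and Acta2 no longer rose. The part of these shifts in the rise of the anchoring genes was not tested. No gene of the cardiac, skeletal muscle, endothelial, pericyte, Schwann cell, mesothelial and erythroid lists was in the table, so these were not analysed here.

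Vehicle library 4 had the lowest immune marker levels of the vehicle group and vehicle levels of the anchoring genes. Over all genes of the table, its log2(FPKM + 1) correlated with DT-061 libraries 1 to 4 at r = 0.971, 0.974, 0.926 and 0.976. It correlated with vehicle libraries 1 to 3 at r = 0.890, 0.956 and 0.941, so over the table it was closer to 3 of the DT-061 libraries. Its mean log2(FPKM + 1) over the 20 immune markers was 2.09. The DT-061 libraries had 1.17 to 1.91 and vehicle libraries 1 to 3 had 3.44 to 4.61. Its summed markers were above every DT-061 library for macrophages (78.2 FPKM), B and plasma cells (176 FPKM) and fibroblasts (221 FPKM), as was Cfd (489 FPKM). The sums for T and NK cells (7.14 FPKM) and neutrophils (1.46 FPKM) lay within the DT-061 range. In vehicle library 4 the mean over the 7 anchoring genes was 7.03. That is under the 7.55 to 7.78 of the DT-061 libraries and within the 6.83 to 7.12 of vehicle libraries 1 to 3. A link between immune and anchoring gene levels was not tested. Its Synpo2, Pgm5 and Ldb3 values were the lowest of all 8 libraries and its Itga8 value the highest of the vehicle group. Within the DT-061 group, library 3 had the lowest immune mean, 1.17, and the highest mean of the 7 genes, 7.78. With DT-061 library 3 and vehicle library 4 both left out, all 7 genes still rose, with log2 changes from 0.28 for Ldb3 to 0.76 for Pdlim3 and a highest limma adjusted p of 0.047.

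**Figure D5:**
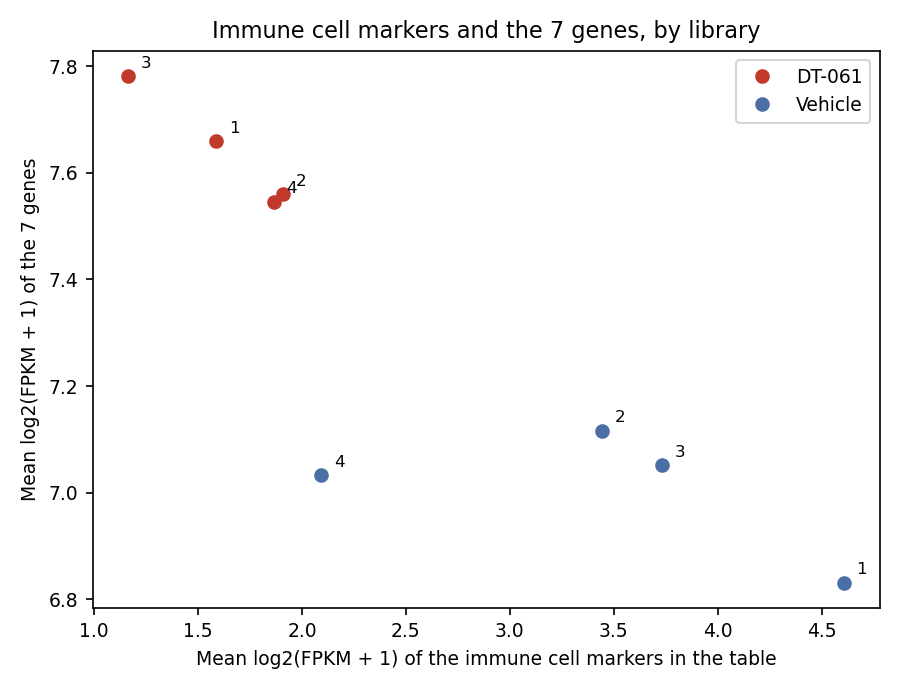
Mean log2(FPKM + 1) of the 20 immune cell markers in the table (horizontal axis) and of the 7 anchoring genes (vertical axis) in each library, DT-061 in red and vehicle in blue, numbered by library. On the horizontal axis vehicle library 4 lies at 2.09, above the DT-061 libraries and under the other vehicle libraries. On the vertical axis it lies among the vehicle libraries, at 7.03.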

How the data were processed

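The authors deposited FPKM per gene for 8 libraries, per the file headers. The submitters' processing notes name mm10 as the build and, with no role for each, featureCounts 1.5.0-p3, StringTie 1.3.3b and HISAT2 2.0.5. Their selection test, annotation and strand setting: not given in the sources used here. Columns were matched to samples by title. Symbols were found for 1328 of the 1329 genes, and coordinates came from GENCODE on GRCm38, the same build. Depth was recovered from low FPKM values, which times exonic length are whole multiples of 1 fragment (15 to 25 preselected values per library up to 60 fragments, 100% within 0.03 of a whole number, against 0% to 4.65% at the median step tried). These fragments were not used in a test.

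Limma 3.58.1 in R 4.3.3, with trend and robust, was fitted to log2(FPKM + 1) of all 1329 genes with treatment as the only term and Benjamini-Hochberg adjustment over all of them, threshold 0.05. The SE, intervals and adjusted p come from it. A second fit used each gene's log2(FPKM + 1) minus that of Myh11, over the 1328 other genes. Fold changes are ratios of mean FPKM, and log2 changes understate those of low genes. The alternatives were another pseudocount (0.1), a filter (mean FPKM of at least 1), limma without trend and robust, a replicate block, 2 scalings, leaving out libraries, and the mean of the thin filament genes in place of Myh11. Named genes were the 7 members, members of the 9 pathway lists in the table, and the 6 genes most like the members. Some of the list members are not reported here. Other named genes and ratios were chosen after their values were seen. The members, lists and tests were chosen with earlier results of these data known.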

Additional observations from a re-analysis of the deposited data

Results flagged for a closer look

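In 5 of the 42 sets of 4 values examined, 1 library lay far from the other 3. The sets covered 21 genes in each group, the 7 members and the 14 listed genes in the table. For independent sets chance alone gives about 1 in 20. These genes were measured in the same libraries, so the sets are not independent and an excess cannot be read from the count. DT-061 library 3 was high for Flna, at 1694 FPKM against 1076 to 1156 FPKM in the other DT-061 libraries, for Pdlim7, at 167 FPKM against 122 to 128 FPKM, and for Myom1, at 203 FPKM against 107 to 122 FPKM. DT-061 library 1 was high for Csrp2, at 1606 FPKM against 1377 to 1407 FPKM. Vehicle library 1 was low for Vim, at 1726 FPKM against 2100 to 2144 FPKM in the other vehicle libraries. Without DT-061 library 3 the log2 change of Flna was 0.58 and it kept its call by limma.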

How the results depend on the processing

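All 7 genes kept their direction in every alternative run, and all 7 kept their limma call in each except quantile normalization, where 5 did. The number of genes called, 1268, was 834 with the replicate block (204 higher and 630 lower), 733 with the median rescaling and 603 with quantile normalization. Leaving out 1 library gave 942 to 1230 calls.

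Deviations of same-numbered libraries from their group means gave r = 0.18, -0.11, -0.05 and -0.47 for numbers 1 to 4. These values show no clear shared signal in the genes of the table. They cannot settle whether the numbers pair libraries, which the labels do not state. Of the DT-061 libraries, only library 1 correlated best with the vehicle library of its own number. With the replicate block all 7 genes were still called (highest limma adjusted p = 0.047).

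The call of Ldb3 against Myh11 was fragile. The number of members called by limma was 0, against 1, without trend and robust, with the replicate block, without both DT-061 library 3 and vehicle library 4, with the thin filament list in place of Myh11, and with that list without Tpm3 (chosen after seeing the data). It was 0 to 1 when 1 library was left out. At an unadjusted p under 0.05 the count was 1 in the first 2 of these and 0 in the next 3. The relative change of Ldb3 was -0.59 to -0.36 with 1 library left out.

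Several relative changes of the uncalled genes turned sign. Itga8 ranged from -0.21 to 0.0049 and Pdlim3 from -0.20 to 0.055 with 1 library left out, and without both libraries they were 0.073 and 0.087. Against the thin filament list, Csrp1, Flna, Itga8, Pdlim3, Pgm5 and Synpo2 changed by 0.17, 0.20, 0.12, 0.23, 0.12 and 0.11, and against that list without Tpm3, Flna and Pdlim3 by 0.021 and 0.045. Itga2 changed by 0.17 with quantile normalization. The cause of these turns was not tested.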
